A study of Mus musculus with 4 samples.

Results

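Secretory granule and synaptic vesicle genes were examined in RPP631, a mouse small cell lung cancer (SCLC) cell line. The set held 43 of the 54232 genes in the count table. They were taken by symbol from a list and joined to their counts by Ensembl identifier, and they comprised 9 granule cargo genes, 5 prohormone processing genes, 22 vesicle fusion genes and 7 other genes of the same pathway or cell type. Cells of the same line were kept for 48 h in DMSO, the vehicle, or for 48 h in YKL at 100 nM. The series title speaks of CDK7 inhibition, and CDK7 is a kinase of the general transcription machinery. Each of these 2 groups had 2 bulk RNA libraries, and the labels give no genotype, clone or further name for the compound. The question was how transcript levels of these tumour cells responded to the inhibitor.

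SCLC is a neuroendocrine tumour, and its cells carry the machinery of regulated secretion. Prohormones and granins are packed into dense-core granules, cut there by proprotein convertases and carboxypeptidase E, and amidated by the enzyme that Pam encodes. Granules and synaptic vesicles then dock at the plasma membrane with the help of RAB3 GTPases and priming factors, and they fuse through SNARE proteins when a synaptotagmin binds calcium. Chga, Syp, Ncam1 and Uchl1 encode proteins that are used to recognise neuroendocrine tumours.

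The libraries DMSO replicate 1, DMSO replicate 2, YKL replicate 1 and YKL replicate 2 held 34189709, 31082753, 29817387 and 32956564 counts assigned to genes. A gene was called when edgeR's quasi-likelihood test gave a Benjamini-Hochberg adjusted p under 0.05 over the 16749 genes tested. Levels are CPM, the counts of a gene relative to the total of its library after scaling by TMM, and fold changes are YKL over DMSO. A rise or fall is therefore relative to the other transcripts. A change in the amount of all RNA per cell would not show in these levels and was not tested. Whether replicates came from separate cultures is not given, and the p-values then reflect the spread of these 4 libraries alone, which may be technical. In bulk RNA, fewer cells that express a gene and less RNA of it per cell cannot be told apart. Of 8 markers of neuroendocrine lung tumour cells, each was read in every library. Nkx2-1, a lung lineage factor, was the 1 called, at 403 and 408 CPM in DMSO and 168 and 201 CPM in YKL (adjusted p = 0.0189). Summed fibroblast markers ran from 15.2 to 50.6 CPM, endothelial markers from 2.33 to 4.08 CPM, leukocyte markers from 3.38 to 8.88 CPM and markers of other lung epithelium from 6.28 to 16.2 CPM. Most of the fibroblast sum came from 1 gene in every library, and so did most of the sum for other lung epithelium. The T cell marker Cd3e was at 0 in all libraries, whereas the counts of the leukocyte marker Ptprc were 0 and 2 with DMSO against 25 and 23 with YKL (adjusted p = 0.0392). The part of these markers in the results was not tested.

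After YKL, 5 of the 43 genes were higher and 2 were lower, or 16.3% called, and these changes fell in different steps of the pathway. The genes that rose were the cargo gene Vgf, the convertase gene Pcsk6, the monoamine transporter gene Slc18a1, the complexin gene Cplx1 and the granule membrane gene Ptprn2. Those that fell were the SNARE gene Vamp2 and the vesicle membrane gene Sv2a. Of all genes tested, 3.54% were called, 2.1% higher and 1.44% lower, and of the 11101 protein-coding genes with at least 110 counts in every library, the lowest count of any of the 43, 4.36% were called. The 43 genes had a median log2 fold change of 0.05, with 28 values above 0 and 15 below, against a median of -0.00014 over all genes tested. An unadjusted p under 0.05 was found for 14 of the 43, or 32.6%, against 21.2% of all genes tested and 23.4% of those protein-coding genes. The groups did not overlap in 23 of the 43, or 53.5%, against 52.3% of all genes. Out of the 43, YKL was the higher group without overlap in 16 and the lower in 7. Out of all genes tested, the shares were 27% and 25.3%. All 43 passed the filter on low counts, with at least 10 counts in every library.

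**Figure D1:**
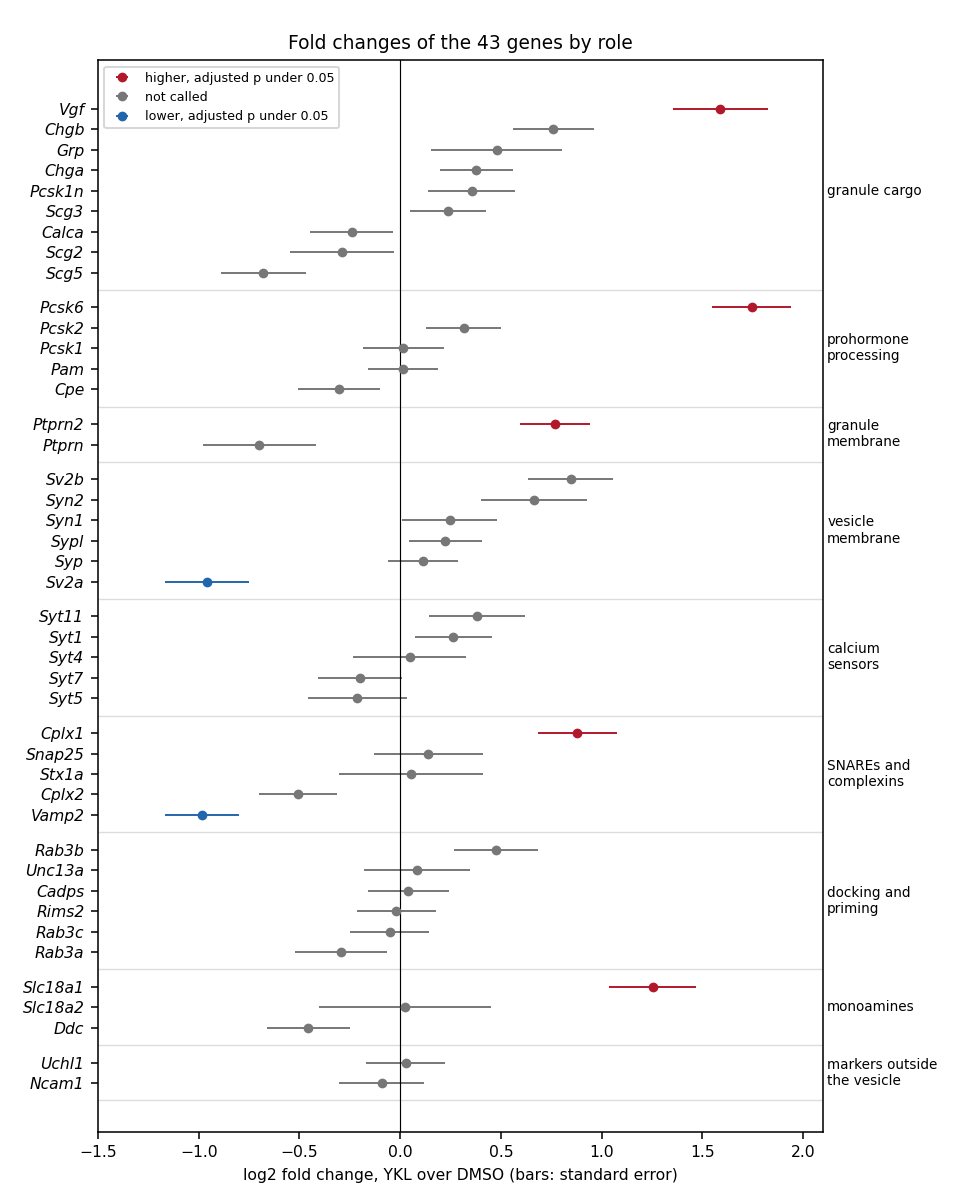
Log2 fold change, YKL over DMSO, on the horizontal axis for each of the 43 genes, grouped by role, with standard errors as bars. The 5 genes called higher (red) reach from 0.77 to 1.74 and the 2 called lower (blue) lie at -0.96 and -0.98, while the genes not called (grey) lie between -0.70 and 0.85.

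The summed level of the set was 8651 and 8246 CPM in DMSO against 8851 and 8518 CPM in YKL, a mean 1.03 times as high with overlapping groups. The 9 cargo genes summed to 2089 and 2259 CPM in DMSO and 2621 and 2404 CPM in YKL, a mean 1.16 times as high with no overlap. The 5 processing genes summed to 1892 and 1737 CPM in DMSO and 1898 and 1927 CPM in YKL. The 22 vesicle fusion genes summed to 2722 and 2657 CPM in DMSO and 2600 and 2644 CPM in YKL. Within the fusion genes, the 5 SNARE and complexin genes summed to 1040 and 965 CPM in DMSO and 712 and 694 CPM in YKL, while the 6 vesicle membrane genes stood at 517 and 583 CPM in DMSO and 619 and 702 CPM in YKL. These sums are dominated by their most abundant members and were not tested.

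Granule cargo held 1 gene that rose, 8 that were not called and none that fell, with a median log2 fold change of 0.35 over the 9. Vgf (ENSMUSG00000037428, chromosome 5, 137026392 to 137033351, mm10) encodes a granin-like precursor of several neuropeptides. It had 49.5 and 60.6 CPM in DMSO and 199 and 132 CPM in YKL. Both YKL libraries lay more than 2 times above the higher DMSO library, although they differed from each other by 1.51-fold. The rise was 3.01-fold (log2 fold change 1.59 ± 0.24, standard error; adjusted p = 0.014). The chromogranins encode acidic proteins that make up the granule core. Chga had 537 and 569 CPM in DMSO and 759 and 679 CPM in YKL, with no overlap between the groups but no call (log2 fold change 0.38 ± 0.18, adjusted p = 0.272). Chgb had 204 and 172 CPM in DMSO and 361 and 276 CPM in YKL, again without overlap (log2 fold change 0.76 ± 0.20, adjusted p = 0.0713). Scg5, which encodes 7B2, the chaperone of the convertase PC2, lay lower in YKL without overlap, at 43.1 and 55.4 CPM in DMSO and 28.8 and 32.7 CPM in YKL (log2 fold change -0.68 ± 0.21, adjusted p = 0.108). Scg2, the secretogranin II gene, had 178 and 187 CPM in DMSO, and its YKL libraries differed most of all cargo genes, at 191 and 109 CPM. Scg3, whose protein helps to sort granins, had 378 and 319 CPM in DMSO and 441 and 380 CPM in YKL.

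Neither peptide hormone gene among the cargo was called. Calca, which yields calcitonin or CGRP by alternative splicing that gene counts do not resolve, was the most abundant of the 43 genes per length. It had 617 and 783 CPM in DMSO and 530 and 654 CPM in YKL, so the groups overlapped (log2 fold change -0.24 ± 0.21, adjusted p = 0.557). Grp, the gene of gastrin-releasing peptide, a growth factor for SCLC, was read at a low level, with 230 and 266 counts under DMSO against 294 and 379 under YKL. Its level was 6.88 and 8.44 CPM in DMSO and 9.59 and 11.8 CPM in YKL, with no overlap (log2 fold change 0.48 ± 0.33, adjusted p = 0.441). Pcsk1n, the gene of proSAAS, an inhibitor of the convertase PC1/3, had 76.0 and 105 CPM in DMSO and 102 and 129 CPM in YKL (adjusted p = 0.392).

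**Figure D2:**
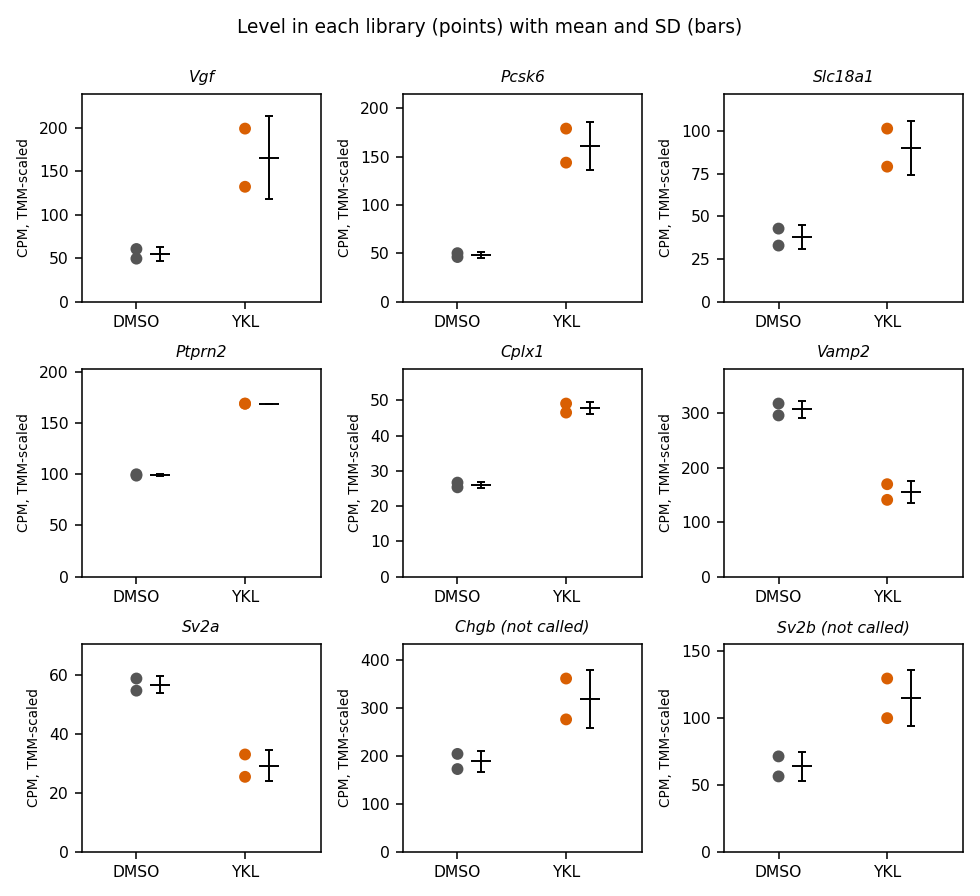
TMM-scaled CPM on the vertical axes from 0, for the 7 called genes and for Chgb and Sv2b, which were not called. Points are single libraries and bars give the mean and SD of the 2 libraries of a group. The groups do not overlap in any panel, and Ptprn2 has the closest replicates.

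Among the processing enzymes 1 of 5 rose, 4 were not called and none fell, with a median log2 fold change of 0.02. Pcsk6 (ENSMUSG00000030513, chromosome 7, 65861734 to 66050386) encodes PACE4, a convertase that is secreted and acts mostly outside the dense-core granule. It had 50.2 and 46.2 CPM in DMSO and 144 and 179 CPM in YKL. The replicates differed by 1.087-fold in DMSO and by 1.245-fold in YKL. The rise of 3.35-fold was the largest fold change of the 43 genes (log2 fold change 1.74 ± 0.20, adjusted p = 0.00795). The granule convertases themselves were much more abundant. Pcsk1, the gene of PC1/3, had 879 and 715 CPM in DMSO and 881 and 730 CPM in YKL, nearly the same pair of values in each group (log2 fold change 0.02 ± 0.20, adjusted p = 0.978). Pcsk2, the gene of PC2, had 311 and 251 CPM in DMSO and 341 and 358 CPM in YKL (log2 fold change 0.31 ± 0.19, adjusted p = 0.371), and 3.29% of its exonic bases are shared with the antisense gene Pcsk2os1. Cpe, which trims basic residues after the convertases have cut, had 466 and 538 CPM in DMSO and 349 and 465 CPM in YKL (log2 fold change -0.30 ± 0.20, adjusted p = 0.44). Pam, the amidating enzyme gene, had 186 and 188 CPM in DMSO and 182 and 195 CPM in YKL, the narrowest spread of these 5 genes over the 4 libraries (log2 fold change 0.01 ± 0.17, adjusted p = 0.977).

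Promoter sequences of Chgb, Scg2 and Pcsk1 are shown because the upstream bases of these granule genes hold the full cAMP response element, the site bound by CREB. They come from RefSeq on GRCm38.p6, the assembly behind mm10, and give the 250 bases before the annotated start of transcription, 5′ to 3′ on the strand of the gene. That start lay 364, 94 and 31 bases downstream of the first base of the counted gene for Chgb, Scg2 and Pcsk1. The Chgb window therefore lies within the span of the counted gene. Chgb is read from chr2:132781392-132781641 on the plus strand, Scg2 from chr1:79440027-79440276 on the minus strand and Pcsk1 from chr13:75089607-75089856 on the plus strand. Capitals mark matches to the element TGACGTCA and to its core TGACG.
Chgb: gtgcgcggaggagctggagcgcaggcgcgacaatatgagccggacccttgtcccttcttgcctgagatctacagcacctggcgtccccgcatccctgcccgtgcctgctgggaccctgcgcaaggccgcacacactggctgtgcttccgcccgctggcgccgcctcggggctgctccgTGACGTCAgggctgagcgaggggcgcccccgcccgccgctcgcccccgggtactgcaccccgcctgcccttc
Scg2: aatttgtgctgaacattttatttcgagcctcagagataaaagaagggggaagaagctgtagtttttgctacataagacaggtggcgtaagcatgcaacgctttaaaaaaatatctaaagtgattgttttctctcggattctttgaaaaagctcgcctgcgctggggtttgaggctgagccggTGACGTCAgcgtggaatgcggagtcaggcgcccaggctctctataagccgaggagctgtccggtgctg
Pcsk1: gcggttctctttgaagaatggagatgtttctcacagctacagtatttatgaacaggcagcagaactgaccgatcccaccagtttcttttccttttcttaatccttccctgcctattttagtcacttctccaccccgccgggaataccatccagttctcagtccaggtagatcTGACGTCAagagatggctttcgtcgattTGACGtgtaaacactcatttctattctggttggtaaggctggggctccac
The element began at position -72 in Chgb, -68 in Scg2 and -78 in Pcsk1, counted from the start of transcription. A promoter was at hand for 32 of the 43 genes. Some genes had several annotated starts, and a gene was counted when the window of any of them matched. Searched on both strands, TGACGTCA was found in 4 of these 32, the fourth being Syn1, or 12.5%, against 1.77% of the 27025 genes with a promoter in the table. The core TGACG, which the full element contains, was found in 15 of the 32, or 46.9%, against 19.8% of all genes. The E-box CAGCTG, a sequence that basic helix-loop-helix factors bind, was found in 12, or 37.5%, against 14.7%, and the GC box GGGCGG in 22, or 68.8%, against 35.4%. The E-boxes of Syt1 and Rab3a lay only before a further start, 1871 and 423 bases into the counted gene. That of Cplx2 lay before a start far upstream of the counted gene. The core of the RE1 element, which REST binds, was found in 0 of the 32 and in 0.037% of all genes. An exact match this rare could hardly be met in the windows of 32 genes, so the 0 does not show that these genes lack REST sites. The TATA box TATAAA was found in 3, or 9.38%, against 14.3%. Of the 7 called genes, 4 had a promoter sequence, and among these 4 the full element and its core were absent from the window, the E-box was present in 2 and the GC box in 4. Chgb, Scg2, Pcsk1 and Syn1, which hold the full element, were not called, at log2 fold changes of 0.76, -0.29, 0.02 and 0.25. The windows were matched by letters alone, which shows no binding. The 27025 genes outnumber the 16749 genes with enough counts to be tested, so they include genes not expressed in these cells. They were also not matched to the 32 for G and C content or for the number of starts per gene. Whether the higher shares are particular to granule and vesicle genes was not tested.

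The granule membrane genes Ptprn and Ptprn2 encode IA-2 and IA-2beta, catalytically inactive phosphatase-like proteins that span the granule membrane. Ptprn2 (chromosome 12, 116485720 to 117276849) had 98.7 and 100 CPM in DMSO and 168.9 and 169.1 CPM in YKL. The replicates nearly coincided in both groups, and the rise was 1.7-fold (log2 fold change 0.77 ± 0.17, adjusted p = 0.0457). Ptprn had 62.2 and 86.3 CPM in DMSO and 57.4 and 34.2 CPM in YKL, lower in YKL without overlap and not called (log2 fold change -0.70 ± 0.28, adjusted p = 0.202). The ratio of Ptprn2 to Ptprn within a library, which no scaling of libraries changes, was 1.59 and 1.16 in the DMSO libraries against 2.94 and 4.95 in the YKL libraries.

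The vesicle membrane genes comprised the synaptophysin, SV2 and synapsin genes, and 1 of 6 fell, 5 were not called and none rose. Sv2a (ENSMUSG00000038486, chromosome 3, 96181151 to 96195521) and Sv2b (chromosome 7, 75114894 to 75309262) encode transporter-like glycoproteins of vesicles and granules. Sv2a had 58.9 and 54.8 CPM in DMSO and 33.1 and 25.5 CPM in YKL. Both YKL libraries lay well below both DMSO libraries, and the fall was 1.94-fold (log2 fold change -0.96 ± 0.21, adjusted p = 0.0399). Sv2b had 71.2 and 56.3 CPM in DMSO and 99.9 and 129 CPM in YKL, higher in YKL without overlap and not called (log2 fold change 0.85 ± 0.21, adjusted p = 0.0586). The ratio of Sv2b to Sv2a was 1.21 and 1.03 in the DMSO libraries against 3.02 and 5.09 in the YKL libraries. Their counts were therefore about equal in DMSO and favoured Sv2b in YKL, a mean change of 3.52 times, although per length Sv2a stood at 12.3 ± 0.629 and Sv2b at 7.61 ± 1.26 CPM per kb of exon in DMSO (SD, n = 2), and at 6.31 ± 1.16 and 13.7 ± 2.5 in YKL. On that scale the order of the genes turned over between the groups.

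The upstream sequences of this pair and of Cplx1 and Ptprn2 are shown because Sv2a, Cplx1 and Ptprn2 were called and Sv2b stood opposite Sv2a. Sv2a is read from chr3:96180977-96181226 on the plus strand, Sv2b from the most upstream of its 4 RefSeq starts, chr7:75309263-75309512 on the minus strand, Cplx1 from chr5:108550028-108550277 on the minus strand and Ptprn2 from chr12:116485470-116485719 on the plus strand. Capitals mark the E-box CAGCTG and, in Sv2b, the TATA box TATAAA on the opposite strand.
Sv2a: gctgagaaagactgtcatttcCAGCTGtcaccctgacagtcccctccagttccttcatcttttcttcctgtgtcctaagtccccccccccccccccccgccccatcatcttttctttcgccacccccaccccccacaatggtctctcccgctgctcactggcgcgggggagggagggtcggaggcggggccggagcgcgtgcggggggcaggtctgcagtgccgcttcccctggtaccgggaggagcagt
Sv2b: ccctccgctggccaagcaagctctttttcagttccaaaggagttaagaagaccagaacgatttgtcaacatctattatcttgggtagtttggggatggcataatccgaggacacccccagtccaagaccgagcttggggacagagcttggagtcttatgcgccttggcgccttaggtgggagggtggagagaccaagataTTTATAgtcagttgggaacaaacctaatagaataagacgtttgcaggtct
Cplx1: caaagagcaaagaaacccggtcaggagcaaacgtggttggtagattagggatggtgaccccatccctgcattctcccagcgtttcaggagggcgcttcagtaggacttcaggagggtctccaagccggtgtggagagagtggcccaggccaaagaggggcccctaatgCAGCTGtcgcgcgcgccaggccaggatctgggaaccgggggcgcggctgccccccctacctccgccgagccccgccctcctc
Ptprn2: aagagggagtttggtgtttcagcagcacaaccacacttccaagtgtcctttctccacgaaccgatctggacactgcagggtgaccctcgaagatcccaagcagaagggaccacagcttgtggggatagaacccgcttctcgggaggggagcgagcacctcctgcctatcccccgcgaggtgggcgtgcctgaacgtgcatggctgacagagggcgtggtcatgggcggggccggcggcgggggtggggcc
Sv2a had an E-box at position -229 and a G and C content of 66%, whereas Sv2b had no E-box in this window, a TATA box match at -50 and a G and C content of 48.8%. Cplx1 had an E-box at -82, and none of the marked motifs was found in Ptprn2. Pcsk6, which was also called and whose promoter sequence is not shown, held none of them either.

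Syp, the synaptophysin gene and a marker of neuroendocrine tumours, was among the steadiest genes of the set. It had 178 and 182 CPM in DMSO and 193 and 196 CPM in YKL (log2 fold change 0.11 ± 0.17, adjusted p = 0.767), and 16.8% of its exonic bases are shared with the antisense gene Gm14703, which had 72 counts in all. The related Sypl had 50.6 and 51.1 CPM in DMSO and 57.7 and 61.1 CPM in YKL. Of the synapsin genes, which tie vesicles to the cytoskeleton, Syn1 had 109 and 153 CPM in DMSO and 129 and 182 CPM in YKL (adjusted p = 0.608). Syn2 had 48.7 and 86.5 CPM in DMSO and 106 and 108 CPM in YKL, where its DMSO libraries differed by 1.78-fold (log2 fold change 0.67 ± 0.26, adjusted p = 0.196).

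None of the 5 synaptotagmin genes, which encode calcium sensors or related vesicle proteins, was called, at log2 fold changes from -0.21 to 0.38. At an unadjusted p under 0.05 none of the 5 passed either, and Syt11 was called without DMSO replicate 1 (adjusted p = 0.0367). Syt11 had 308 and 191 CPM in DMSO and 346 and 305 CPM in YKL, so the groups overlapped (adjusted p = 0.399). Syt1, the fast calcium sensor of synaptic vesicles, had 190 and 179 CPM in DMSO and 193 and 249 CPM in YKL (adjusted p = 0.474). Syt7, the slower sensor of granules, had 93.7 and 89.9 CPM in DMSO and 94.1 and 65.8 CPM in YKL. Syt5 had 35.6 and 43.9 CPM in DMSO and 27.3 and 41.3 CPM in YKL, and Syt4 had 20.7 and 13.5 CPM in DMSO and 17.7 and 17.8 CPM in YKL.

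Among the SNARE and complexin genes 1 of 5 rose and 1 fell. Vamp2 (ENSMUSG00000020894, chromosome 11, 69088490 to 69092384) encodes synaptobrevin 2, the SNARE of the vesicle membrane. It had 296 and 318 CPM in DMSO and 170 and 141 CPM in YKL. The lower DMSO library lay well above the higher YKL library, and the fall was 1.98-fold (log2 fold change -0.98 ± 0.18, adjusted p = 0.0273). Its partners at the plasma membrane were not called. Snap25 had 45.0 and 81.3 CPM in DMSO, the widest spread of the 43 genes between the DMSO libraries, and 68.0 and 71.0 CPM in YKL (adjusted p = 0.825). Stx1a, the syntaxin 1A gene, had 7.62 and 13.4 CPM in DMSO and 9.37 and 12.4 CPM in YKL (adjusted p = 0.956). Complexins bind assembled SNAREs and regulate when they fuse membranes. Cplx1 (chromosome 5, 108518554 to 108550024) had 25.3 and 26.7 CPM in DMSO and 49.1 and 46.6 CPM in YKL, with close replicates and a rise of 1.84-fold (log2 fold change 0.88 ± 0.20, adjusted p = 0.0431). Cplx2 was far more abundant and lay lower in YKL without overlap, at 666 and 525 CPM in DMSO and 416 and 423 CPM in YKL (log2 fold change -0.51 ± 0.19, adjusted p = 0.174). The ratio of Cplx1 to Cplx2 was 0.0381 and 0.0508 in the DMSO libraries against 0.118 and 0.110 in the YKL libraries, so Cplx2 was the main complexin transcript in each library.

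**Figure D3:**
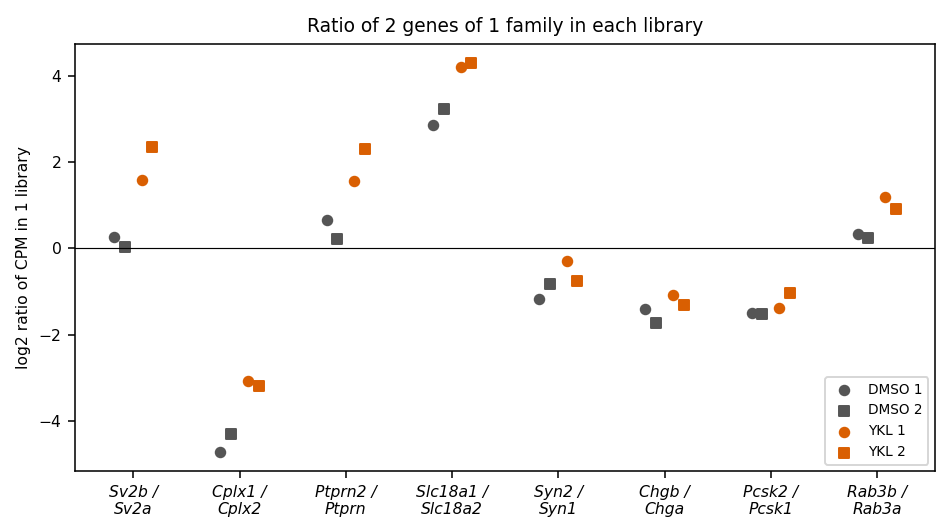
Log2 ratio of CPM between 2 genes of the same family on the vertical axis, in each of the 4 libraries, for 8 pairs on the horizontal axis. The ratio of Sv2b to Sv2a lies near 0 in DMSO and at 1.59 and 2.35 in YKL, and those of Ptprn2 to Ptprn and Cplx1 to Cplx2 are also higher in both YKL libraries than in both DMSO libraries.

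The pairs were chosen after the fold changes were known, and with 2 libraries a group no 2-sided exact permutation test can go below p = 0.333. In each of the 8 pairs drawn the ratios of the groups did not overlap, a pattern to which the choice of pairs contributed. The mean log2 ratio moved by 1.81 for Sv2b to Sv2a, by 1.49 for Ptprn2 to Ptprn, by 1.37 for Cplx1 to Cplx2 and by 1.2 for Slc18a1 to Slc18a2. It moved by 0.76 for Rab3b to Rab3a, by 0.48 for Syn2 to Syn1, by 0.38 for Chgb to Chga and by 0.31 for Pcsk2 to Pcsk1. A ratio shows unequal change of the genes in it and not which of them changed.

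No docking or priming gene was called, and the 6 log2 fold changes ran from -0.29 to 0.47. At an unadjusted p under 0.05, 1 of the 6 passed, namely Rab3b. Rab3 genes encode the GTPases of vesicles, and Rab3b had 71.8 and 102 CPM in DMSO and 123 and 118 CPM in YKL without overlap (adjusted p = 0.229). It was called without DMSO replicate 2 (adjusted p = 0.032). Rab3a had 56.9 and 86.0 CPM in DMSO and 54.0 and 62.6 CPM in YKL, and Rab3c had 142 and 108 CPM in DMSO and 118 and 123 CPM in YKL (log2 fold change -0.05 ± 0.20, adjusted p = 0.917). Unc13a, which encodes the priming factor MUNC13-1, had 105 and 185 CPM in DMSO and 163 and 144 CPM in YKL (log2 fold change 0.08 ± 0.27, adjusted p = 0.902). It shares 3.92% of its exonic bases with Colgalt1 on the other strand, an expressed gene, so its level is uncertain. Cadps, the granule priming gene also known as CAPS, had 61.8 and 48.6 CPM in DMSO and 60.7 and 52.9 CPM in YKL. Rims2, an active zone scaffold gene, had 79.3 and 62.3 CPM in DMSO and 72.8 and 67.0 CPM in YKL.

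Of the monoamine genes 1 of 3 rose. Slc18a1 (ENSMUSG00000036330, chromosome 8, 69037711 to 69089235) encodes VMAT1, the vesicular monoamine transporter of endocrine cells. It had 42.8 and 32.8 CPM in DMSO and 101 and 79.0 CPM in YKL, and both YKL libraries were above both DMSO libraries. The rise was 2.38-fold (log2 fold change 1.25 ± 0.22, adjusted p = 0.0219). Its relative Slc18a2, which encodes VMAT2, had the lowest level per length of the 43 genes, with 197 and 110 counts under DMSO against 169 and 130 under YKL (log2 fold change 0.03 ± 0.43, adjusted p = 0.983). Ddc, the decarboxylase gene of serotonin and dopamine synthesis, had 921 and 705 CPM in DMSO and 632 and 554 CPM in YKL, lower without overlap but not called (log2 fold change -0.46 ± 0.20, adjusted p = 0.237). It was called without DMSO replicate 2 (adjusted p = 0.0456).

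Neither neuroendocrine marker outside the vesicle was called, and the groups overlapped for both. Uchl1, a ubiquitin hydrolase gene, had 551 and 422 CPM in DMSO and 485 and 506 CPM in YKL (log2 fold change 0.03 ± 0.20, adjusted p = 0.96). Ncam1, the gene of the adhesion molecule CD56, had 266 and 243 CPM in DMSO and 283 and 195 CPM in YKL (log2 fold change -0.09 ± 0.21, adjusted p = 0.858). A missed threshold does not show that these levels were equal.

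Set against length, the genes covered more than 2 orders of magnitude. In DMSO, Calca stood at 415 ± 69.8 CPM per kb of exon (SD, n = 2), followed by Uchl1 at 298 ± 56.1, Chga at 201 ± 8.33, Cpe at 192 ± 19.3 and Ddc at 182 ± 34.2. Chga, Cpe and Ddc did not differ beyond their spread. The lowest were Stx1a at 3.94 ± 1.53, Cadps at 3.67 ± 0.619 and Slc18a2 at 1.23 ± 0.446. In YKL the first 4 places were the same, with Calca at 352 ± 51.9 and Uchl1 at 304 ± 9.41, while Vamp2 went from 80.6 ± 4.06 to 40.8 ± 5.33 CPM per kb and from place 9 to 16. Pcsk6 went from 9.28 ± 0.544 to 31.1 ± 4.8 and from place 34 to 19, and Vgf from 18.5 ± 2.64 to 55.7 ± 15.9 and from place 22 to 12.

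**Figure D4:**
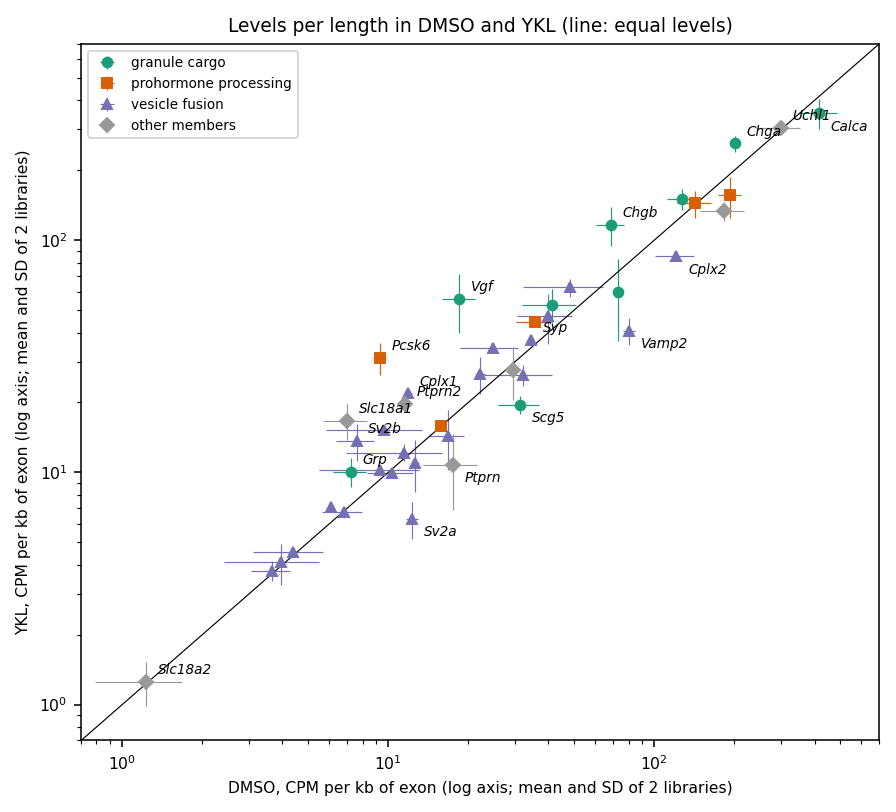
CPM per kb of exon in DMSO (horizontal) and YKL (vertical), both on log axes, with mean and SD of 2 libraries for each of the 43 genes and a line of equal levels. Pcsk6, Vgf and Slc18a1 lie above the line, Vamp2 and Sv2a lie below it, and Calca and Slc18a2 mark the upper and lower ends.

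Of 127 other genes of granules, vesicles and regulated exocytosis, 107 had enough counts to be tested, and 5 rose and 1 fell, or 5.61% against 3.54% of all genes. Their median log2 fold change was 0.26, with 62 values above 0. An unadjusted p under 0.05 by edgeR was found for 21 of the 107, or 19.6%, against 21.2% of all genes tested. The groups did not overlap in 54, or 50.5%, against 52.3% of all genes. Of the processing enzymes in that list 2 of 9 rose. Cpd, the gene of carboxypeptidase D of the trans-Golgi network, had 300 and 246 CPM in DMSO and 489 and 521 CPM in YKL (1.85-fold, adjusted p = 0.0382). Qpct, which encodes the glutaminyl cyclase that forms pyroglutamate at the end of peptides, had 17.6 and 25.7 CPM in DMSO and 61.4 and 44.0 CPM in YKL (2.43-fold, adjusted p = 0.0345). Furin, the convertase gene of the Golgi, had 89.4 and 128 CPM in DMSO and 81.8 and 117 CPM in YKL (adjusted p = 0.816). The groups were thus apart for Cpd and Qpct and overlapped for Furin.

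Among the other fusion and docking genes, Syt13, an atypical synaptotagmin gene, had 60.7 and 61.0 CPM in DMSO and 95.6 and 121 CPM in YKL (1.78-fold, adjusted p = 0.0477). Rims4, which encodes a short RIM protein, had 26.1 and 27.1 CPM in DMSO and 45.4 and 59.4 CPM in YKL (1.97-fold, adjusted p = 0.0393). Stxbp6, the gene of the SNARE-binding protein amisyn, had 17.3 and 19.0 CPM in DMSO and 31.7 and 40.5 CPM in YKL (1.99-fold, adjusted p = 0.0476). These 3 genes rose. The gene that fell, Rph3al, encodes NOC2, a RAB3 effector of granule exocytosis, and had 109 and 110 CPM in DMSO and 66.7 and 55.4 CPM in YKL (1.79-fold, adjusted p = 0.0414). None of 16 other peptide cargo genes, 14 other vesicle membrane genes or 6 other monoamine enzyme genes tested was called by edgeR. At an unadjusted p under 0.05, 2, 2 and 1 of these passed.

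The calls differed in how firmly they stood. Pcsk6 and Vgf were called in each of 10 other settings, at log2 fold changes of 1.57 to 1.90 and of 1.27 to 1.85. Slc18a1 lost its call with total count scaling and without YKL replicate 1 (highest adjusted p = 0.113), at log2 fold changes from 1.04 to 1.46. Vamp2, Sv2a, Cplx1 and Ptprn2 each lost it in the same 4 settings, namely total count scaling, no robust prior, and the absence of YKL replicate 1 or YKL replicate 2, with adjusted p up to 0.219, 0.278, 0.255 and 0.249. Their log2 fold changes stayed within -1.12 to -0.86, -1.16 to -0.79, 0.84 to 0.91 and 0.74 to 0.78. Of the genes not called, 9 were called in at least 1 of the 10 settings. Chgb and Sv2b were called in the same 4, namely no filter, the replicate block, DESeq2 and the absence of DMSO replicate 1, with adjusted p from 0.0153 to 0.435 for Chgb and from 0.00504 to 0.371 for Sv2b over the 10. They were the 2 genes of the 43 that the replicate block added to the 7. Scg5 was called in 3 settings, Syn2 in 2, and Ptprn, Syt11, Cplx2, Rab3b and Ddc in 1 each. A group left with 1 library was assumed to vary like the other group. Of all genes tested, 4.19% were called with RLE scaling, 1.01% with total count scaling, 5.79% with no filter, 1.41% with no robust prior, 8.28% with a replicate block and 11.6% by DESeq2. With single libraries left out the share was 7.61% and 14% without DMSO replicates 1 and 2, and 0.606% and 0.402% without YKL replicates 1 and 2. All 7 genes were also below an adjusted p of 0.05 in the authors' deposited table of their own comparison, which placed 17 of the 43 genes there, 10 higher and 7 lower, against 27.8% of all genes in it. The 10 others in the authors' deposited table were Chgb, Scg5, Cpe, Ptprn, Syt11, Sv2b, Syn2, Cplx2, Rab3b and Ddc.

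**Figure D5:**
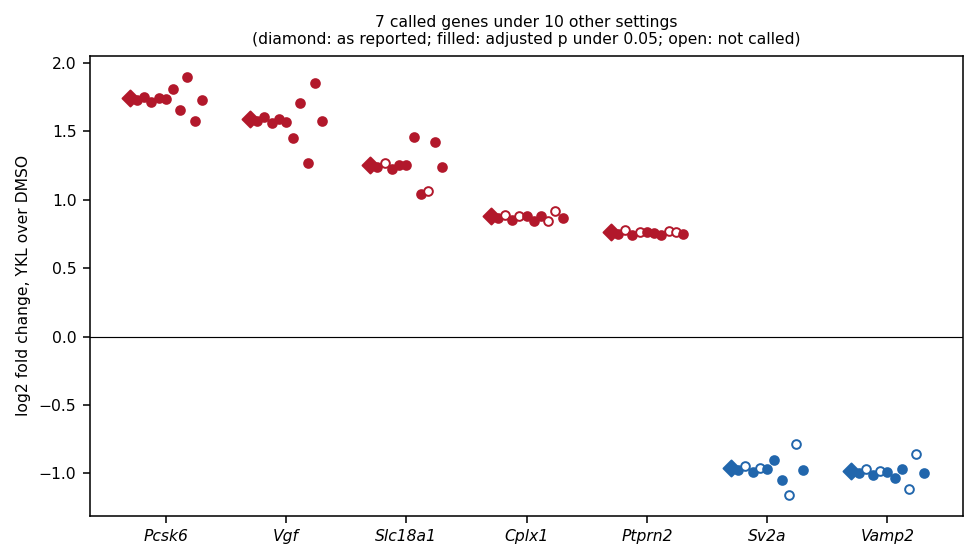
Log2 fold change on the vertical axis for the 7 called genes as reported (diamonds) and under 10 other settings (circles), filled where the adjusted p was under 0.05. Pcsk6 and Vgf are filled throughout, and no value crosses 0.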

How the data were processed

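Bulk RNA of 2 DMSO and 2 YKL libraries was analysed. The submitters' processing notes name STAR 2.5.2b, featureCounts, DESeq2 and the mm10 build. The authors deposited raw counts per gene and library, and their own DESeq2 table with a normalized mean signal, log2 fold changes, a test score, and p-values. The strand setting is not given in the sources used here, so reads of genes that overlap on opposite strands may be joined or split.

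Counts were tested with edgeR 4.0.16 in R 4.3.3, with filterByExpr (minimum count 10, minimum total 15), TMM, a robust prior, 2 residual degrees of freedom, and Benjamini-Hochberg adjustment over all genes. Standard errors were taken from each log2 fold change and its F statistic. The procedure was run on counts simulated from its own fitted dispersions, which does not give the error rate of the calls reported here. Alternatives were RLE and total count scaling, no filter, no robust prior, the replicate number as a block, each library left out, and DESeq2 1.42.0 on the filtered genes. Promoters are RefSeq sequences. CPM per kb divides by the deposited summed exon length. Genes were named by a rule: each called gene, the 2 most abundant and the most changed of each role, and 6 diagnostic markers, with the others given by value. The genes, lists and rule were chosen with earlier results of these data known. Some marker genes are not reported here.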

Additional observations from a re-analysis of the deposited data

How the results depend on the processing

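Calls depended on the settings. Over all genes 593 were called, against 169 under total count scaling, 236 with no robust prior, 1740 without the filter, 1599 by DESeq2 and 71 to 2453 with 1 library left out. Of the 43 genes 7 were called, against 2 under total count scaling, 3 with no robust prior, 12 without the filter and 2 to 11 with 1 library left out (11 without DMSO replicate 1 or DMSO replicate 2, 2 without YKL replicate 1 and 3 without YKL replicate 2). Of the other pathway genes edgeR called 6, against 0 under total count scaling, 0 with no robust prior, 12 without the filter, 11 by DESeq2, and 0 (without YKL replicate 1) to 17 (without DMSO replicate 2) with 1 library left out. In the fits with a count of 0, an unadjusted p under 0.05 was reached by 23, 21 and 14 of them. With the replicate number as a block, 1387 genes, 9 of the 43 and 9 of the other pathway genes were called. The deviations of same-numbered libraries correlated at 0.152 over genes, and with 2 pairs the numbers are not shown to pair the samples.

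No called gene of the 43 changed sign in the 10 alternatives, and 9 of the others were called in at least 1. Of named genes that were not called, Pcsk1 had a log2 fold change of -0.000203 with RLE scaling, -0.000205 by DESeq2, -0.0154 without the filter, and -0.16 to 0.17 with 1 library left out. Uchl1 had -0.00404 without the filter and -0.19 to 0.24 with 1 library left out. The leave-one-out ranges were -0.0263 to 0.48 for Syn1, -0.27 to 0.16 for Rab3c, -0.27 to 0.52 for Unc13a and -0.38 to 0.15 for Ncam1. The cause was not tested. Scaling moved the median of all genes by less than 0.1 on the log2 scale. Grp, Stx1a and Slc18a2 had the lowest counts and the widest errors of the 43.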

Other observations

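Of the 43 genes 8, or 18.6%, differed by more than 1.5-fold between the DMSO libraries and 4, or 9.3%, between the YKL libraries. Of the 11101 protein-coding genes with at least 110 counts in every library, 14.8% and 6.95% did so, and a wider spread between the DMSO libraries was thus not particular to the 43. In DMSO 5 of the 8 were higher in replicate 2, namely Snap25 (1.81-fold), Syn2 (1.78-fold), Unc13a (1.77-fold), Stx1a (1.76-fold) and Rab3a (1.51-fold). The other 3 were higher in replicate 1, namely Slc18a2 (1.69-fold), Syt11 (1.61-fold) and Syt4 (1.53-fold). Among the other cargo genes Adm, which encodes adrenomedullin, had 1.2 and 31.8 CPM in DMSO replicates 1 and 2 and 12.5 and 12.9 CPM in YKL. Pomc, the precursor gene of ACTH, had 3.2 and 12.8 CPM in DMSO and 5.12 and 7.98 CPM in YKL. The part of this spread in the results was not tested.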
